A study of Homo sapiens with 12 samples.

Results

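The 30 genes described here carry out or assist nucleotide excision repair. They were chosen by name, and each was found in the count table by the Ensembl ID of its symbol: 30 of 30 symbols matched, among 63677 gene IDs. The RNA came from LNCaP, a human prostate cancer cell line that responds to androgens. The cells grew in hormone-proficient medium, and total RNA was sequenced in 12 libraries. USP22, the ubiquitin protease of the SAGA coactivator complex, was raised in one pair of groups and lowered in the other. The 4 groups of 3 libraries were a pLPLUC vector control and USP22 overexpression, neither labelled with doxycycline, plus a control shRNA (shRNA control) and one directed at USP22 (USP22 depletion). Doxycycline (1 ug/mL, renewed every 48 hours over 5 days) was given to both of the last groups, control included. A single shRNA label stands for the depletion, and whether the lines were clones or pools is not given. Nothing in the labels tells separate cultures from repeat preparations, so every p-value measures the spread between these libraries, which may be technical.

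Nucleotide excision repair removes bulky, helix-distorting damage such as ultraviolet photoproducts and drug adducts. In the global branch, XPC with RAD23B and CETN2 senses the distortion, helped at some lesions by DDB2 in a ubiquitin ligase with DDB1, CUL4A or CUL4B and RBX1. In the transcription-coupled branch, a stalled RNA polymerase II is recognised by ERCC6 (CSB) and ERCC8 (CSA) together with UVSSA and ELOF1. Both branches recruit TFIIH, which opens the DNA with the helicases ERCC3 (XPB) and ERCC2 (XPD). XPA then helps verify the damage, the nucleases ERCC4-ERCC1 and ERCC5 (XPG) cut on either side, and polymerases fill the gap.

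DDB2 and ERCC6 were the members whose responses to raised and lowered USP22 differed in every alternative analysis, in opposite directions, so the sequence around their starts is shown. Sequences are from RefSeq on build GRCh38.p14, where 29 of the 30 members had an entry, with 43 starts in all. The entries run from 250 bases before each start, and only bases outside annotated exons are printed for the upstream windows. DDB2 has 2 listed starts on the plus strand of chromosome 11. ERCC6 has 2 on the minus strand of chromosome 10, of which the more upstream one is printed. Capitals mark CCAAT in the first window and the GC box GGGCGG, on either strand, in the next pair.
DDB2 upstream start, chr11:47214204-47214453 (+): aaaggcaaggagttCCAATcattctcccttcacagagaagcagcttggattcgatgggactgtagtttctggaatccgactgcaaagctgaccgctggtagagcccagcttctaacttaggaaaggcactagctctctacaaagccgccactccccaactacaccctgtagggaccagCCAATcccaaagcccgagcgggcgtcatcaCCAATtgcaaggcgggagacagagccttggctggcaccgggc
DDB2 downstream start, chr11:47214724-47214941 (+): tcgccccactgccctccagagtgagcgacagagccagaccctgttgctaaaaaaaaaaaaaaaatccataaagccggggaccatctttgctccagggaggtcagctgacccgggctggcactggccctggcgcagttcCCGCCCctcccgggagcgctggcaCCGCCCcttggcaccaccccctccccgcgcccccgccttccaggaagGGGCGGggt
ERCC6 upstream start, chr10:49539539-49539788 (-): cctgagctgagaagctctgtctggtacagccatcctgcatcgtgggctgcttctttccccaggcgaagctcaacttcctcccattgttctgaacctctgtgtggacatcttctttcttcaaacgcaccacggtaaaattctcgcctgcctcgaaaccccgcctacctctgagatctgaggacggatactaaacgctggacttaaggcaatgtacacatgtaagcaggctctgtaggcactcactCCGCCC

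The search for motifs covered both strands of the 250 bases before each start. The GC box GGGCGG was found in 23 of 29 members and in 46.2% of all genes, CCAAT in 11 of 29 and 37.0%, and the ETS letters CCGGAAG in 10 of 29 and 10.2%. The letters TTTGGCGC or TTTCCCGC, used for E2F, were in 2 of 29 members (XPC and CUL4A) and 2.36% of genes. The CRE letters TGACGT were in 2 of 29 members and 8.62% of genes. Median GC content of the windows was 63.6% for the starts of members and 58.0% for all starts. These are matches of letters in a fixed window and do not show that a factor binds there.

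The targeted gene followed the labels. USP22 had 481.6, 490.6 and 565.2 CPM (counts scaled to a common library size by TMM) in vector control and 1498, 1406 and 1495 under overexpression. It had 479.6, 473.4 and 479.7 CPM in shRNA control and 256.9, 265.3 and 250.6 after depletion. The log2 fold change was 1.52 on overexpression and -0.89 on depletion, so depletion was partial. Total counts ran from 77607469 to 103690001 per library. Vector control replicate 3 stood apart: its genes differed from those of its group mates with an SD of 0.31 on the log2 scale, against at most 0.18 in any other library, and its mitochondrial share was 0.691% of counts, the lowest of all. In that library 8 of 29 members lay over 20% from the mean of the other vector controls, XPC, ERCC2, XAB2 and ELOF1 above it and CUL4B, RBX1, TCEA1 and POLK below it. None did so outside the vector control group. All 8 luminal prostate markers were detected, with summed levels between 4270 and 6039 CPM. They were not constant. On depletion 5 fell and 1 rose (KLK3 log2 -2.13), beside 31.4% of genes at 5 CPM or more called in either direction. On overexpression 1 fell (KLK3 log2 -0.51), beside 6.46% of such genes. Between control lines 5 were higher and 2 lower in shRNA control (TMPRSS2 log2 1.49), beside 61.3% of such genes. By contrast KRT5, TP63, PTPRC, PECAM1 and DCN, markers of basal, blood, endothelial and stromal cells, did not pass the filter on low counts. COL1A1, the remaining one of 6 such markers, passed it and was higher in shRNA control than in vector control (2.14-fold), and the summed level of the 6 was 6.08 to 16.4 CPM. The part of these marker differences in the members' changes was not tested.

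All 30 members passed the filter, and 29 of them had a mean of at least 5 CPM. Levels per length, in RPKM (CPM per kilobase of exon) over all 12 libraries, spanned from 72.0 for RAD23B to 1.33 for ERCC5, with GTF2H4 far below at 0.0855. The median over the 29 members without GTF2H4 was 8.79. After RAD23B came the nucleosome-binding protein HMGN1 at 52.1, the elongation factor TCEA1 at 27.2, CCNH at 22.0 and CETN2 at 21.6. XPC had 12.8 and DDB2 5.87. The 3 nuclease subunits ERCC1, ERCC4 and ERCC5 (5.04, 3.71 and 1.33) and the coupling factors UVSSA, ERCC6 and ERCC8 (2.94, 2.72 and 2.43) filled most of the low end. The lengths are those of all annotated exons of a gene in GENCODE 29 joined together, which exceed the main transcript for several members. They ran to 16737 bases for ERCC6, 15773 for UVSSA and 13950 for DDB1, against 4897 for DDB2. Neighbours in this order are not resolved by it. Its low end and the size of the ratios per length between genes given below also depend on these lengths. Comparing 1 such ratio between groups does not.

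**Figure D1:**
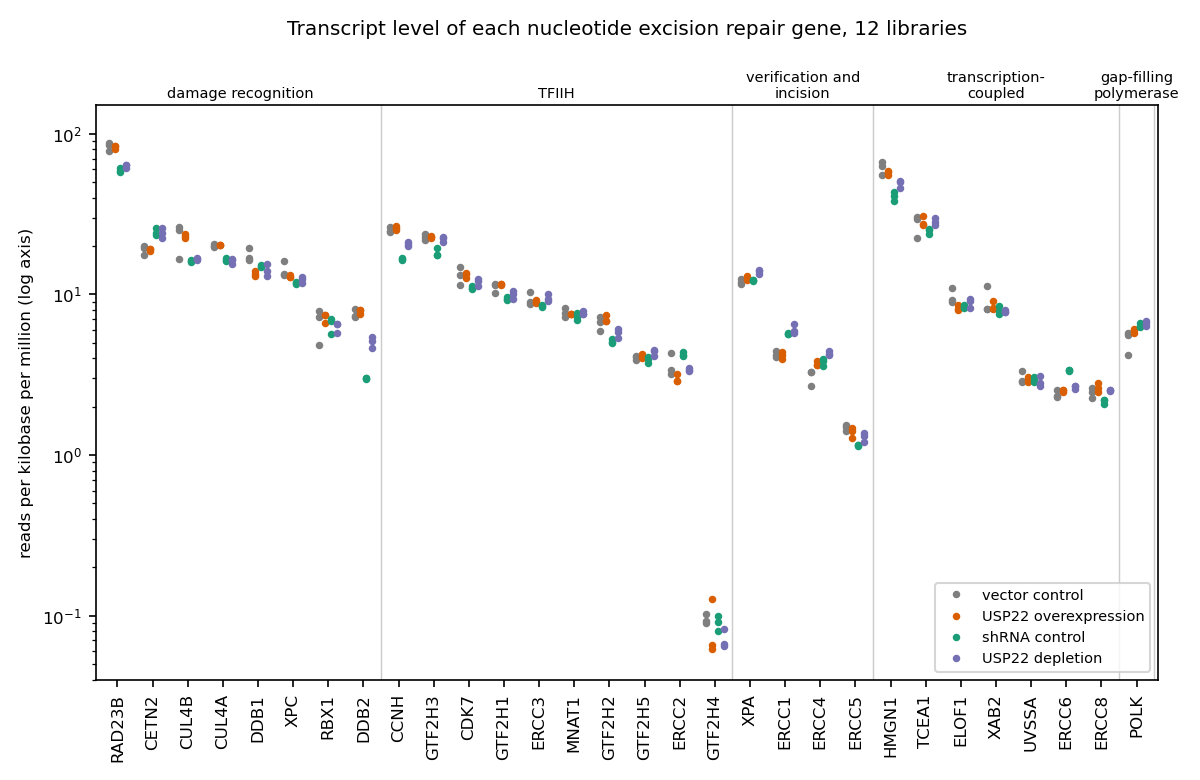
Transcript level of each member in each library, in RPKM on a log axis, grouped by role and ordered by mean level; each point is 1 library, coloured by group. RAD23B (mean 72.0) and HMGN1 (52.1) are at the top, GTF2H4 (0.0855) lies far under the rest, and the shRNA control points of DDB2 lie below those of the other 3 groups.

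The reads of GTF2H4, the TFIIH subunit that anchors XPB, numbered 12 to 24 per library. Of its 2353 exon bases, 1858 are also exon of VARS2 on the same strand in GENCODE 29, and VARS2 had 52.8 to 102.5 CPM. How reads in the shared bases were assigned is not known, so the level of GTF2H4 is uncertain. GTF2H2 has the near-identical copies GTF2H2B (8.43 to 12.1 CPM) and GTF2H2C (27.3 to 40.1 CPM), so its own value depends on how multiply mapped reads were treated. Exons of XPC, DDB1, CUL4A, ERCC2, GTF2H3, CCNH, ERCC1, ERCC4, ERCC8 and POLK overlap genes on the opposite strand. Those of ERCC8, GTF2H3 and MNAT1 overlap other genes on the same strand. Of the 8242 exon bases of ERCC5, 6785 are shared with BIVM or its readthrough on the same strand. How those reads were assigned is not known either, so the level of ERCC5, the lowest after GTF2H4, and its fold changes are uncertain.

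One repair gene passed the test when USP22 was raised, and 8 passed it, mostly with small changes, when USP22 was lowered. With edgeR's quasi-likelihood test and Benjamini-Hochberg adjustment over 26076 genes, overexpression was called for 1 of 30 members, DDB1, which fell. Among all tested genes 4.11% were called (1.51% higher, 2.6% lower), and 6.46% of those with a mean of at least 5 CPM. Depletion was called for 8 of 30: DDB2, GTF2H3, CCNH, XPA, ERCC8 and HMGN1 rose, and ERCC2 and ERCC6 fell. The background there was 19.8% of all tested genes (9.4% higher, 10.4% lower) and 31.4% of those with at least 5 CPM, and the share among members lay between these values. Median log2 fold changes of the members were 0.00 on overexpression and 0.08 on depletion, beside -0.01 and 0.00 over all tested genes. No member was called in both comparisons, and 21 were called in neither.

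The effects of overexpression and of depletion share no libraries, and their difference was tested directly. It was called for 5 members, against 10.9% of all tested genes (4.91% higher, 5.98% lower) and 18.5% of those with at least 5 CPM. The effect of overexpression was more negative for DDB2, GTF2H3, CCNH and HMGN1, and more positive for ERCC6. The control lines also differed from each other. Between shRNA control and vector control 19 of 30 members were called, 5 higher and 14 lower, with a median of -0.19, against 43% of all tested genes (21.7% higher, 21.3% lower) and 61.3% of those with at least 5 CPM. That comparison shares its shRNA control libraries with the depletion comparison and its vector control libraries with the overexpression comparison. The 2 control lines differ in construct and in doxycycline, which cannot be told apart here.

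**Figure D2:**
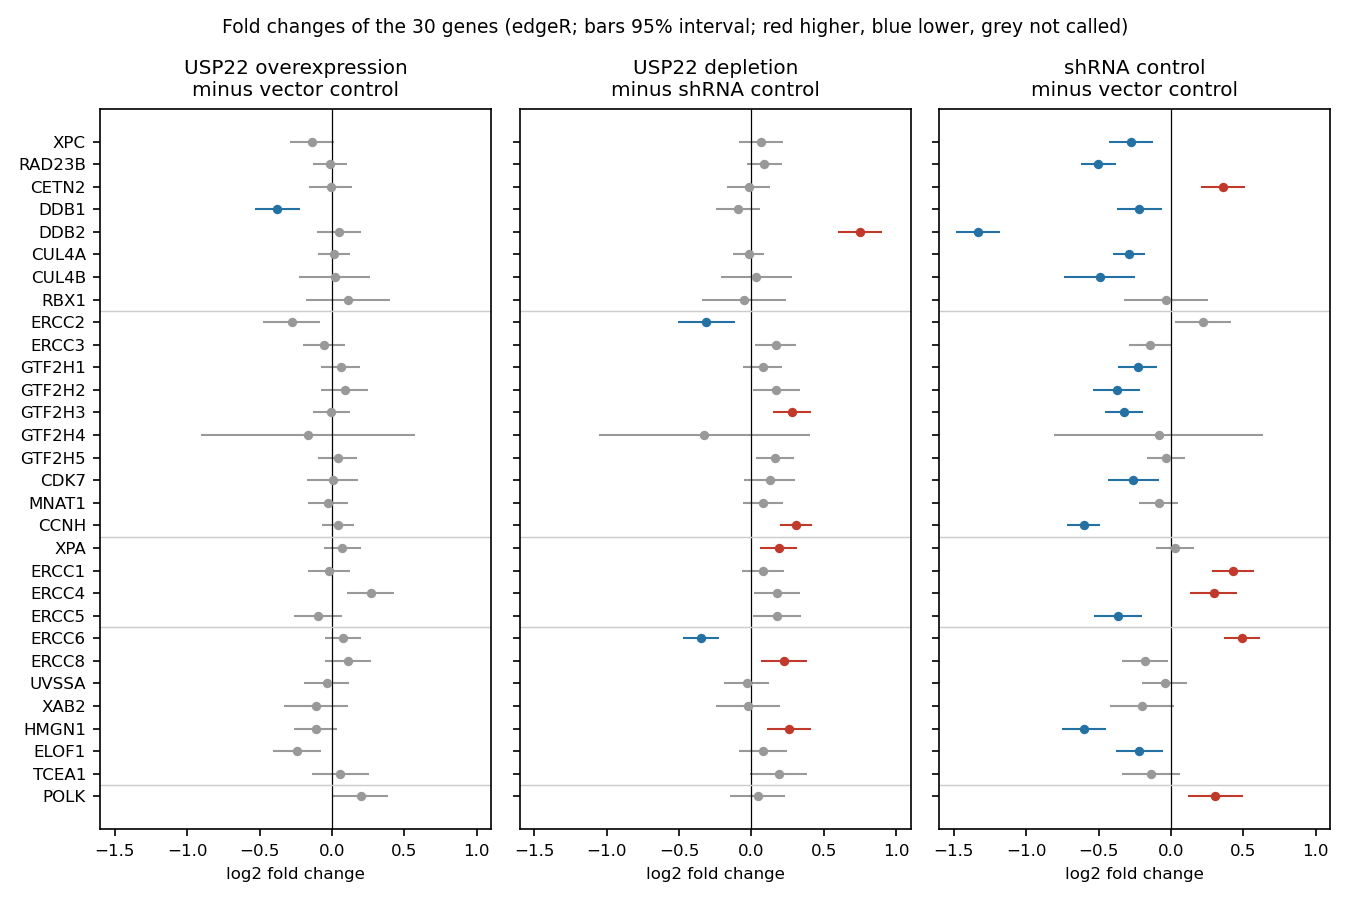
Log2 fold change of each of the 30 members in 3 comparisons, with 95% intervals from edgeR; red marks genes called higher, blue genes called lower and grey genes not called at an adjusted p of 0.05. One member (DDB1) is coloured on overexpression, 8 on depletion and 19 between the control lines, and DDB2 has the largest value in the last 2 panels.

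Among the damage-recognition genes, DDB2, the subunit that binds photolesions directly, had the largest response to depletion of any member. It had 14.8, 14.5 and 14.8 CPM in shRNA control and 25.2, 26.4 and 22.6 after depletion. The libraries of the groups do not overlap, and all 3 depleted ones were higher. The rise was 1.68-fold, a log2 fold change of 0.75 ± 0.07 (SE, adjusted p = 1.90e-06, edgeR). In vector control DDB2 had 35.9, 35.5 and 39.9 CPM, and under overexpression 36.8, 38.9 and 39.4, groups that overlap (log2 fold change 0.05, 95% interval -0.10 to 0.20, adjusted p = 0.771). The shRNA control held 39.7% of the vector control level (log2 difference -1.33, adjusted p = 9.45e-10) and depletion 66.7% of it. The depleted cells thus stood between both controls, above their own control and below the vector control. The effects of overexpression and depletion differed by -0.70 ± 0.10 (SE, adjusted p = 3.36e-04).

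XPC, which senses helix distortion and starts global repair, was called in neither comparison. Its values were 64.6, 63.4 and 77.3 CPM in vector control and 61.4, 61.7 and 63.4 under overexpression. All overexpression libraries were below the vector controls, the nearest by less than 0.1 CPM, and the change was not called (log2 fold change -0.14, 95% interval -0.29 to 0.01, adjusted p = 0.316). In shRNA control XPC had 57.4, 56.3 and 55.8 CPM and after depletion 59.5, 61.1 and 56.8, which overlap (0.07, interval -0.08 to 0.22, adjusted p = 0.592). Between the control lines XPC differed less than DDB2 did, with shRNA control at 82.6% of vector control (log2 -0.28, adjusted p = 0.00469).

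The partners of XPC were not called on overexpression or depletion either. RAD23B, which stabilises XPC, had 265.3 to 282.9 CPM in shRNA control and 280.8 to 294.4 after depletion (log2 0.09, adjusted p = 0.304). In vector control it had 360.5 to 403.0 CPM, above both shRNA groups (shRNA control against vector control, log2 -0.50, adjusted p = 2.11e-06). CETN2, the small calcium-binding partner, went the other way between controls, from 34.1 to 38.5 CPM in vector control to 44.8 to 49.8 in shRNA control (log2 0.36, adjusted p = 5.42e-04). Per length, RAD23B exceeded XPC 5.93-fold ± 0.945 (SD, n = 3) in vector control, 6.38 ± 0.117 under overexpression, 5.01 ± 0.192 in shRNA control and 5.10 ± 0.0746 after depletion.

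DDB1, the adaptor that joins DDB2 and other substrate receptors to CUL4, was the 1 member called on overexpression. It had 233.2, 227.6 and 270.6 CPM in vector control and 186.3, 182.2 and 194.8 under overexpression. All overexpression libraries were lower, a 0.770-fold change (log2 -0.38 ± 0.07, SE, adjusted p = 0.00632). The call ended when only the 6 libraries compared were fitted (adjusted p = 0.0585). On depletion DDB1 was not called, with 213.7, 209.7 and 205.7 CPM in shRNA control and 193.9, 214.0 and 181.5 after depletion (log2 -0.09, adjusted p = 0.424). The difference between the effects, -0.28, was not called (adjusted p = 0.0943).

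The ratio of DDB1 to DDB2 differed between groups. Per length, DDB1 exceeded DDB2 2.30-fold ± 0.0705 (SD, n = 3) in vector control, 1.72 ± 0.0666 under overexpression, 5.00 ± 0.103 in shRNA control and 2.79 ± 0.0791 after depletion. No group overlapped another in this ratio, and with 3 libraries against 3 an exact two-sided permutation test cannot go below p = 0.1. The cullins CUL4A and CUL4B and the RING protein RBX1 were not called on either comparison, with log2 fold changes from -0.05 to 0.11. CUL4B showed how much vector control replicate 3 weighs: it had 185.2, 177.1 and 116.7 CPM there, and 157.6 to 166.4 under overexpression. Its log2 fold change on overexpression was 0.02, and -0.16 without that replicate (adjusted p = 0.0205).

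**Figure D3:**
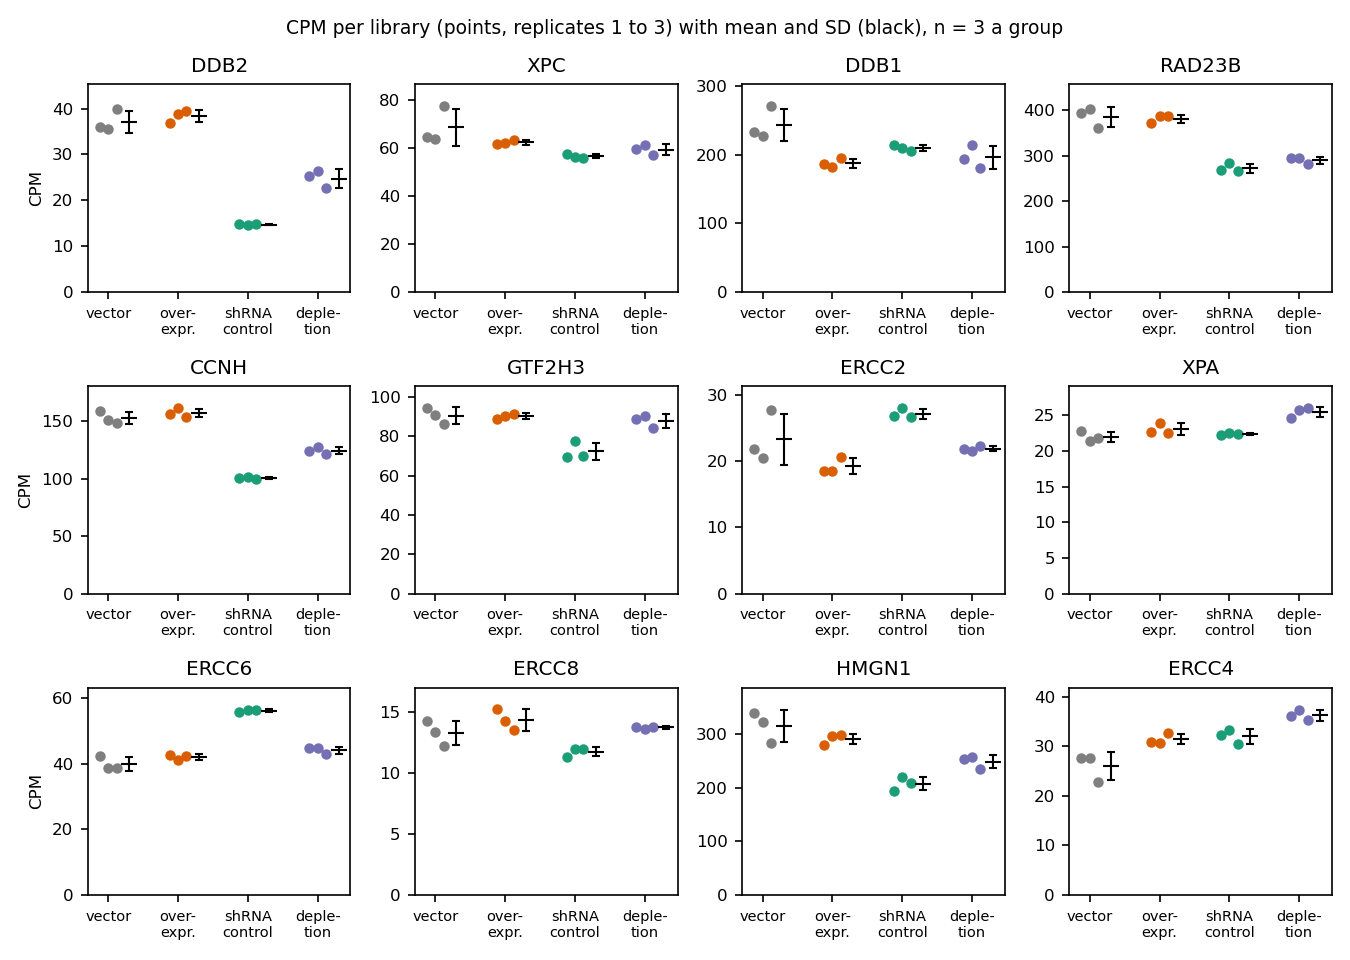
CPM of 12 members in each of the 12 libraries (coloured points, replicates 1 to 3 from left to right) with the group mean and SD in black, on axes that start at 0. The shRNA control points of DDB2 (14.5 to 14.8 CPM) lie under all others, and those of ERCC6 (55.8 to 56.4) lie above all others. Vector control replicate 3 stands above its mates for XPC, DDB1 and ERCC2 and below them for ERCC4 and HMGN1.

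In TFIIH, the 10-subunit complex of a helicase core and a kinase module, 2 subunits rose and 1 fell on depletion, beside 9.4% and 10.4% of all tested genes and 31.4% called in either direction at 5 CPM or more. CCNH, the cyclin of the kinase module, had 100.5, 101.7 and 99.3 CPM in shRNA control and 123.9, 127.8 and 121.3 after depletion, without overlap (1.24-fold, log2 0.31 ± 0.05, SE, adjusted p = 5.32e-04). GTF2H3, the p34 core subunit, had 69.7, 77.5 and 70.1 CPM in shRNA control and 89.0, 90.6 and 84.1 after depletion, all higher (1.21-fold, log2 0.28 ± 0.06, adjusted p = 0.00374). ERCC2, the helicase needed for repair, fell from 26.9, 28.1 and 26.7 CPM to 21.9, 21.6 and 22.3 (0.806-fold, log2 -0.31 ± 0.09, adjusted p = 0.0246). The ERCC2 call ended in 6 of 19 alternatives, each of them without 1 of the shRNA control or depletion libraries (adjusted p up to 0.0986), whereas CCNH and GTF2H3 were called in 19 of 19.

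The control lines differed in these subunits as well. CCNH had 148.2 to 158.7 CPM in vector control, so that shRNA control held 65.8% and depletion 81.4% of that level. GTF2H3 had 86.4 to 94.6 CPM in vector control, a range that overlaps the depleted libraries (shRNA control 79.9%, depletion 96.9% of vector control). On overexpression neither gene was called, with log2 fold changes of 0.04 for CCNH and -0.00 for GTF2H3. Their effects of overexpression and depletion differed by -0.27 (adjusted p = 0.0289) and -0.28 (adjusted p = 0.045), calls held in 8 of 18 alternatives each. ERCC2 had 21.9, 20.5 and 27.7 CPM in vector control and 18.6, 18.6 and 20.7 under overexpression, which overlap (log2 -0.28, adjusted p = 0.114).

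None of the other TFIIH subunits was called on depletion. GTF2H4, with its few reads, had a log2 value of -0.32 with a 95% interval of -1.06 to 0.41. ERCC3, the translocase that opens DNA for both repair and transcription, had 70.2 to 71.8 CPM in shRNA control and 76.6 to 84.0 after depletion, without overlap but not called (log2 0.17, adjusted p = 0.103). GTF2H5, the small stabilising subunit, likewise missed the threshold (log2 0.16, adjusted p = 0.0836), as did GTF2H2 (0.17, adjusted p = 0.137). Of 19 alternatives, 5 called GTF2H5 higher, 3 ERCC3, 2 GTF2H2 and 1 CDK7. Each of these subunits was called when only the libraries compared were fitted. CDK7, the kinase, and MNAT1, its assembly factor, had log2 values of 0.13 and 0.08. GTF2H1 had 0.08. The CCNH to CDK7 ratio per length was 1.93 ± 0.198 (SD, n = 3) in vector control, 1.96 ± 0.0906 under overexpression, 1.51 ± 0.0293 in shRNA control and 1.71 ± 0.0469 after depletion. Across the complex, groups did not overlap for 7 of 10 subunits on depletion and for 0 of 10 on overexpression, beside 41.8% and 22.4% of all tested genes. The matching share at 5 CPM or more, where all subunits but GTF2H4 lie, was not computed.

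Of the verification and incision factors, XPA was the 1 called. XPA, which holds the opened complex together, had 22.3, 22.5 and 22.4 CPM in shRNA control and 24.7, 25.7 and 26.1 after depletion (log2 0.19 ± 0.06, SE, adjusted p = 0.0385). The difference is small, with no overlap, and the call held in 9 of 19 alternatives. It ended whenever 1 of the shRNA control or depletion libraries was left out (edgeR adjusted p up to 0.101). Vector control and overexpression gave 21.3 to 22.7 and 22.5 to 24.0 CPM for XPA, overlapping ranges (log2 0.07, adjusted p = 0.568).

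The 3 nuclease genes were called between the control lines, ERCC1 and ERCC4 higher and ERCC5 lower in shRNA control, beside 61.3% of all genes at 5 CPM or more, and none was called with USP22. ERCC1, the non-catalytic partner of ERCC4, had 22.6 to 24.9 CPM in vector control, 22.1 to 24.5 under overexpression, 31.5 to 32.1 in shRNA control and 31.8 to 36.2 after depletion. Its log2 fold change was -0.02 on overexpression (adjusted p = 0.918), 0.08 on depletion (adjusted p = 0.465) and 0.43 between control lines (adjusted p = 9.10e-05). ERCC4, which makes the cut on the 5′ side, had 27.7, 27.6 and 22.8 CPM in vector control and 30.8, 30.7 and 32.6 under overexpression. These do not overlap, but the change was not called (log2 0.27 ± 0.08, SE, adjusted p = 0.0603), and 7 of 19 alternatives called it higher. Without vector control replicate 3 the log2 fold change was 0.18 (adjusted p = 0.0407, edgeR). On depletion ERCC4 had 32.3, 33.3 and 30.3 CPM in the control and 36.1, 37.3 and 35.2 with the shRNA against USP22 (log2 0.18, adjusted p = 0.114). That rise was called in 2 of 19 alternatives. ERCC5, which cuts on the 3′ side, had log2 fold changes of -0.09 on overexpression and 0.17 on depletion, neither called. Between control lines the log2 difference was 0.29 for ERCC4 (adjusted p = 0.00463) and -0.36 for ERCC5 (adjusted p = 0.00125). The ERCC5 values carry the limit of its shared exons.

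The coupling factors ERCC6 and ERCC8 moved in opposite directions on depletion. ERCC6, the translocase that binds the stalled polymerase, had 55.8, 56.3 and 56.4 CPM in shRNA control and 44.8, 44.7 and 42.9 after depletion. All depleted libraries were lower, a 0.785-fold change (log2 -0.35 ± 0.06, SE, adjusted p = 3.87e-04), called in 19 of 19 alternatives. ERCC8, the substrate receptor of the CSA ubiquitin ligase, had 11.3, 11.99 and 11.9 CPM in shRNA control and 13.8, 13.6 and 13.8 after depletion (1.17-fold, log2 0.23 ± 0.07, adjusted p = 0.0445). That call held in 9 of 19 alternatives. It ended whenever 1 of the shRNA control or depletion libraries was left out (edgeR adjusted p up to 0.132).

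In the other pair of groups neither was called. ERCC6 had 42.5, 38.7 and 38.6 CPM in vector control and 42.7, 41.1 and 42.3 under overexpression, which overlap (log2 0.07, adjusted p = 0.525). The shRNA control was the group apart, at 141% of vector control (log2 0.49, adjusted p = 3.58e-06), with depletion at 110% of it. The effects of overexpression and depletion on ERCC6 differed by 0.42 ± 0.08 (SE, adjusted p = 0.00312). Per length the ERCC6 to ERCC8 ratio was 0.981 ± 0.0429 (SD, n = 3) in vector control, 0.958 ± 0.0567 under overexpression, 1.56 ± 0.0420 in shRNA control and 1.05 ± 0.0309 after depletion. The shRNA control ratios, 1.53 to 1.61, overlapped no other group.

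HMGN1, a nucleosome-binding protein linked to coupled repair, had 194.5, 220.3 and 208.9 CPM in shRNA control and 254.2, 257.8 and 234.2 after depletion. It rose 1.20-fold, without overlap (log2 0.26 ± 0.07, SE, adjusted p = 0.0164), called in 16 of 19 alternatives. Vector control held 283.0 to 340.1 CPM, and shRNA control and depletion stood at 66.0% and 78.9% of its mean. The effect of overexpression differed from that of depletion by -0.37 (adjusted p = 0.0249), held in 11 of 18 alternatives. TCEA1, which rescues backtracked polymerase, had 104.6 to 112.8 CPM in shRNA control and 119.1 to 131.5 after depletion but was not called (log2 0.19, adjusted p = 0.183). For TCEA1, 3 of 19 alternatives called a rise. UVSSA and XAB2, which bring in TFIIH and XPA, had log2 values between -0.11 and -0.03 in both comparisons, none called. ELOF1, the elongation factor that positions UVSSA, had 37.4, 38.6 and 45.7 CPM in vector control and 33.7, 33.5 and 35.8 under overexpression, a gap that was not called (log2 -0.24, adjusted p = 0.0973).

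POLK, a polymerase that can fill the repair gap, had 52.0, 51.0 and 38.2 CPM in vector control and 52.6 to 55.2 under overexpression (log2 0.20, adjusted p = 0.251). It was not called on depletion (log2 0.04, interval -0.15 to 0.23) and higher in shRNA control than in vector control (log2 0.31, adjusted p = 0.0112).

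The rest of the pathway was described from lists of 60 further genes. Of 20 genes of repair synthesis and ligation, which also serve DNA replication, 14 rose and 0 fell on depletion. Among all tested genes 9.4% were higher and 10.4% lower, and of 11375 at 5 CPM or more 1845 were higher and 1732 lower. The median log2 fold change of the 20 was 0.33, against 0.00 over all tested genes. Those that rose included the sliding clamp PCNA (0.68, adjusted p = 1.03e-06), the clamp loader subunits RFC4 (0.56) and RFC3 (0.59), and RPA3 of the single-strand binding complex (0.59). Of 19 regulators of recognition 4 rose and 0 fell, among them CETN3, a paralogue of CETN2 (0.40, adjusted p = 0.00457). Of 16 RNA polymerase II subunits and coupled-repair cofactors 2 rose and 2 fell, and of 5 translesion polymerases 1 fell (POLI). On overexpression 1 of these 60 was called, beside 4.11% of all tested genes: POLR2F, a polymerase subunit, which fell (log2 -0.39, adjusted p = 0.0244). Between control lines 18 of the 20 synthesis genes were lower in shRNA control and 1 was higher, beside 21.3% and 21.7% of all tested genes and 61.3% called in either direction at 5 CPM or more.

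Markers of dividing cells moved in the same libraries. All 10 G2 and mitosis markers rose on depletion, where 9.4% of all tested genes did, and 0 of 10 were called on overexpression, where 4.11% were. At 5 CPM or more, 1845 of 11375 genes rose on depletion and 6.46% were called on overexpression. The summed level of the 10 markers was 1783 to 1951 CPM in vector control, 1781 to 1793 under overexpression, 888 to 963 in shRNA control and 1373 to 1472 after depletion. Of the 8 members called on depletion, DDB2, CCNH, GTF2H3, HMGN1 and ERCC8 had their lowest group mean in shRNA control, ERCC6 and ERCC2 their highest, and XPA neither. Those calls compare with shRNA control itself, so this order is partly set by the choice of members. Lowest there too, though not called on depletion, were XPC, RAD23B, CUL4B, ERCC3, GTF2H1, GTF2H2, GTF2H5, CDK7, MNAT1, ERCC5 and TCEA1. The other members not called were not lowest there, and the share over all genes was not computed. The part of the dividing share in these values was not tested, and in bulk RNA fewer cells of a kind and less RNA per cell cannot be told apart.

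**Figure D4:**
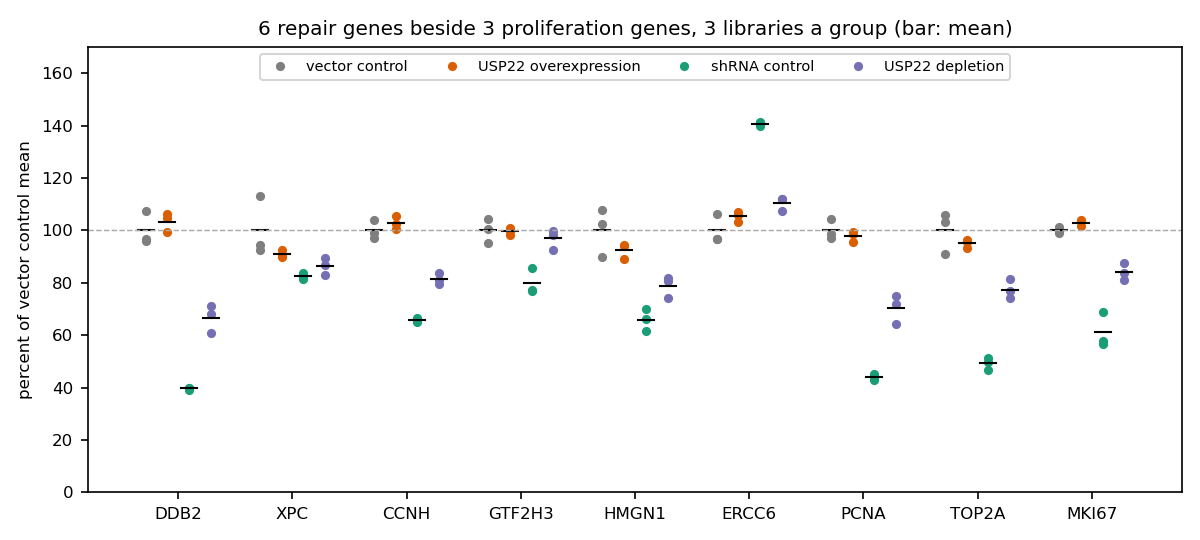
Level of 6 members beside the proliferation genes PCNA, TOP2A and MKI67 as a percent of the vector control mean, 1 point per library and a bar at each group mean (n = 3). DDB2 stands at 39.7% in shRNA control and 66.7% after depletion, and XPC at 82.6% and 86.4%. PCNA stands at 44.1% and 70.5%, TOP2A at 49.3% and 77.4%, and MKI67 at 61.1% and 84.2%. ERCC6 is the 1 gene shown that is highest in shRNA control.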

How the data were processed

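Per the labels' protocols, a stranded kit for total RNA was used for the 12 LNCaP libraries, 3 per group. The authors deposited raw read counts per Ensembl gene ID. The submitters' processing notes list hg19, STAR 2.5.2a, DESeq2 1.14.1 and featureCounts 1.5.0-p3. Not given in the sources used here are the annotation, the strand setting and how multiply mapped reads were counted. Groups came from the labels, and columns were matched to samples by name. The members, roles and gene lists were chosen with earlier results of these data known. All 30 members are named, and of other lists at most 6 called genes with the smallest p. Some genes and results are not reported here.

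Counts were fitted in R 4.3.3 with edgeR 4.0.16 (filterByExpr by group, 26076 genes, TMM, glmQLFit with 4 groups and 8 residual degrees of freedom, glmQLFTest). Benjamini-Hochberg adjustment covered all 26076 genes, with a threshold of 0.05. Fold changes are log2. Standard errors and 95% intervals were derived from the F statistic. Symbols, exon lengths and overlaps came from GENCODE 29 by ID. Coordinates are RefSeq's on GRCh38.p14 and no measurement was placed on them. The procedure was tested on simulated data.

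Alternatives were RLE scaling, no filter, a minimum of 1 CPM in 3 or more libraries, limma voom (limma 3.58.1), DESeq2 1.42.0, only the libraries compared, a replicate block and leaving out each library. A 3 against 3 permutation test cannot go below p = 0.1, so single values were tested in the model of all genes. No pair of replicates agreed within counting noise, and all 12 were kept as separate samples.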

Additional observations from a re-analysis of the deposited data

Results flagged for a closer look

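For 5 members the effect of USP22 overexpression differed from that of USP22 depletion by edgeR's test of the difference itself (overexpression effect minus depletion effect, log2, Benjamini-Hochberg adjusted). The difference was -0.70 for DDB2 (adjusted p = 3.36e-04), -0.28 for GTF2H3 (adjusted p = 0.045), -0.27 for CCNH (adjusted p = 0.0289), -0.37 for HMGN1 (adjusted p = 0.0249) and 0.42 for ERCC6 (adjusted p = 0.00312). In each of the 5 the depletion effect was called and the overexpression effect was not. Among all tested genes 10.9% were called in this test.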

How the results depend on the processing

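With 1 member called on overexpression, the count was 2 without a filter, 2 with the stricter filter, 3 by DESeq2, 0 with only the libraries compared and 1 to 4 when single libraries were left out (4 without vector control replicate 3, 3 without vector control replicate 1 or 2). On depletion the count of 8 became 14 with only the libraries compared and 4 to 13 when single libraries were left out: 13 without vector control replicate 3, 4 without shRNA control replicate 1 or depletion replicate 1 or 2, and 5 without shRNA control replicate 2 or 3. The difference of effects, 5 members, ran from 2 to 8 with a library left out (8 without vector control replicate 3), and the control lines, 19 members, from 16 to 22. The count of all genes called on depletion was 5172, and 8115 with only the libraries compared and 8375 without vector control replicate 3. On overexpression it was 1072, and 2062 without a filter, 1749 by DESeq2, 327 with only the libraries compared, 1876 without vector control replicate 3 and 511 to 621 without 1 overexpression library. CUL4B on overexpression was 0.02, and ran from -0.16 without vector control replicate 3 to 0.14 without vector control replicate 1. Vector control replicate 3 is in neither group of the depletion comparison, but all 4 groups share 1 estimate of the spread. Without it the depletion fold changes, rounded, stayed at log2 0.16 for GTF2H5 and 0.17 for ERCC3. Their edgeR adjusted p went from 0.0836 to 0.0132 and from 0.103 to 0.00334. The cause of these moves was not tested. DDB2, GTF2H3, CCNH and ERCC6 were called on depletion in 19 of 19 alternatives. With a replicate block, 2 members were called on overexpression, 8 on depletion, 5 for the difference and 20 between control lines. The labels do not say whether replicate numbers pair the samples. Correlations of same-numbered deviations from group means ran from -0.16 to 0.50 on overexpression and -0.02 to 0.11 on depletion. In each, 3 of 6 libraries correlated best with their own number. With 3 libraries per group the deviations within a group depend on each other, so these values cannot decide on pairing. GTF2H4 had 12 to 24 reads per library, and 1858 of its 2353 exon bases are shared with VARS2 on the same strand. How reads in the shared bases were assigned is not known, so GTF2H4 allows no statement.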
